A study of Mus musculus with 27 samples.

Results

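The livers of mice taken after 60 min of refeeding were compared with the livers of fasted mice, across all genes measured. The comparison rests on 6 of the 27 libraries of the series, 3 refed and 3 fasted, chosen by their titles. Both groups were wild-type (WT) mice of the strain given as C57/BLN6, and both had gone without food for 16 h. The refed mice then had food for 60 min, whereas the fasted mice were taken with no further food. Another set of 3 samples, called caged food below, had the same fast followed by 60 min with food offered in a cage (the label says no more), and the livers refed for 30 and 120 min are used to place 60 min in time. Age and sex are not given in the sources used here. The fasted group was not matched to the refed group in clock time, so food and time of day cannot be told apart in the comparison with fasted livers. What was measured was polyadenylated RNA, as normalised read counts per gene, which are read counts divided by a scaling factor of the library.

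During a fast the liver makes glucose and releases it, under the control of glucagon, which acts through cyclic AMP, and of FOXO transcription factors, which stay in the nucleus while insulin is low. When food arrives, insulin activates the kinase Akt, which sends FOXO factors out of the nucleus, and amino acids together with insulin activate mTORC1, a kinase that promotes ribosome production and translation. Glucose use, glycogen storage and later fat synthesis follow, and the protein-folding machinery of cytosol and endoplasmic reticulum (ER) is known to respond to the rise in protein synthesis.

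The 6 libraries were close in depth. Their normalised read counts summed to 42588026 to 45495165, the reads behind them were estimated at 38.0 to 51.1 M, and a single read was worth 0.833 to 1.128. Genes above 0 numbered 19790 to 20637 per library. Pearson's r across genes on the log2 scale was 0.9844 to 0.991 within the groups and 0.9792 to 0.985 between them, where genes are not independent replicates. On the first principal component of all 27 libraries (18.3% of the variance) the fasted libraries lay between -17.87 and -15.4 and the refed 60 min libraries between 19.0 and 21.03. The liver label was checked against 10 hepatocyte markers, among them the albumin gene Alb, which were the most abundant of the marker lists and summed to 5159245 to 5955060 in fasted and 5151345 to 5218290 in refed libraries. Of the other cell type markers, leukocyte markers summed to 643 to 880 and 575 to 857, with 11 of 12 below 0 in log2 fold change and the B cell gene Ms4a1 called as fallen. Pancreatic markers summed to 354 to 412 and 320 to 465, with Try4, Try5, Cela3b and Amy2a5 at 0 in all 6. Kupffer cell markers overlapped between the groups as well (18165 to 22143 and 16760 to 21083). The part of cell composition in the results was not tested, and in whole liver fewer cells of a type and less RNA per cell cannot be told apart.

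Of 15932 genes tested, 1754 (11.0%) differed between refed 60 min and fasted livers at a limma adjusted p under 0.05, of which 1156 rose (7.26%) and 598 fell (3.75%). These shares are the background for the gene lists below. Most changes were small. The median size of a called log2 fold change was 0.514 among risen genes and 0.570 among fallen genes, on the scale of log2 of the value plus 1 that is used throughout. At least a 2-fold change was seen in 196 risen genes (17.0%) and 131 fallen genes (21.9%), and at least a 4-fold change in 47 and 22. Over all genes tested the median log2 fold change was -0.016. For 4420 genes (27.7%) the 3 libraries of one group lay beyond the 3 of the other. Called genes named below were picked on these same libraries, and the largest rises and falls by this separation itself. Where it is stated for them, it describes the values and is not further support. Risen genes had a median gene length of 17314 bases and fallen genes of 20492.5, against 20473 for all genes tested, while their exonic lengths had medians of 4820.5 and 4330 against 4009. Without fasted replicate 2 the count of called genes was 1131, and without fasted replicate 3 it was 1155. Genes fallen numbered 342 and 366 without these and 396 without refed 60 min replicate 3. Labels of 2 libraries of 240 min conflict. Refed 240 min replicate 3 lay at 37.06 on the first principal component, where replicates 1 and 2 were at 49.39 and 40.81. Caged food 240 min replicate 1 lay at -20.51, where replicates 2 and 3 were at -17.35 and -17.92. Both thus lay with the groups of their titles. Grouping them by treatment label instead (the treatment-label grouping below) mixes libraries that lie apart and touches only the shared estimate of spread. It left 901 genes called, 655 risen and 246 fallen. On the 6 libraries alone 1153 were called.

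**Figure D1:**
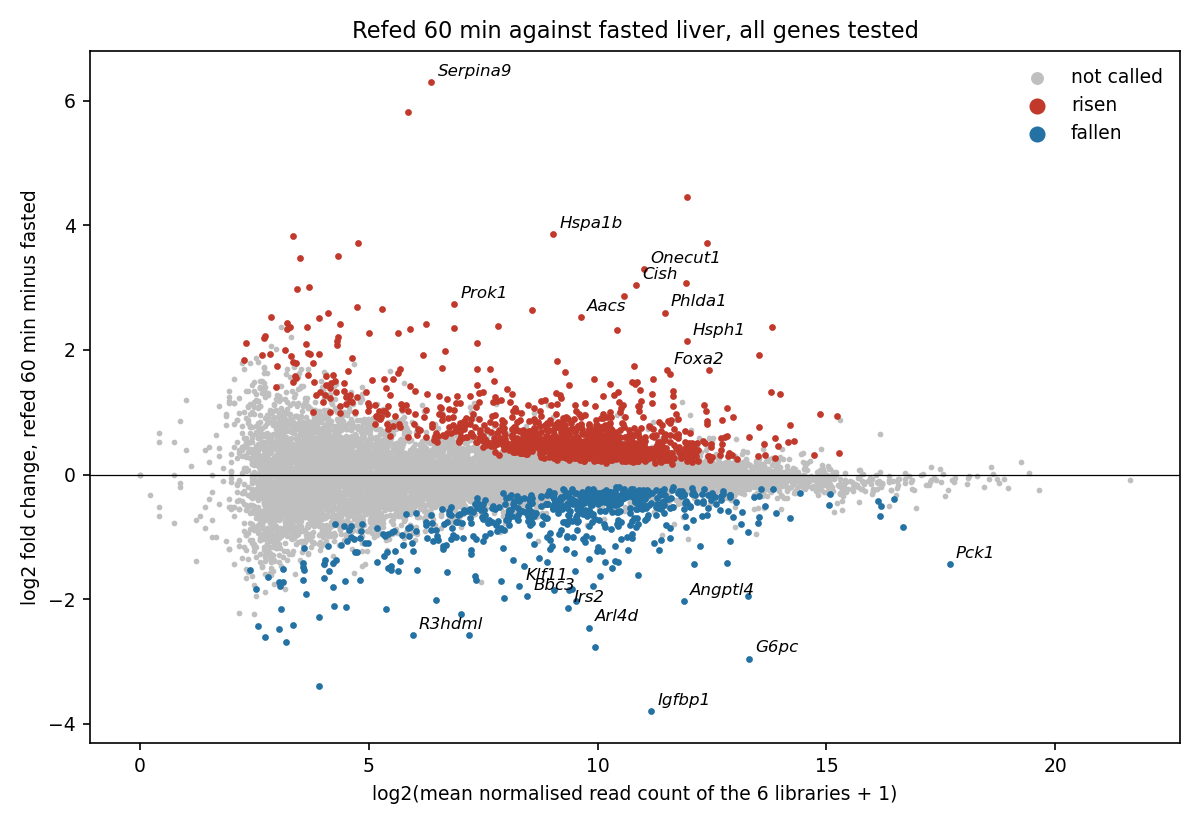
Mean level of each gene over the 6 libraries (x axis, log2 of the mean normalised read count plus 1) against its log2 fold change from fasted to refed 60 min (y axis), with risen genes in red, fallen genes in blue and genes not called in grey. The largest labelled rise is Serpina9 at 6.30 and the largest labelled fall is Igfbp1 at -3.80, and called genes are found from low to high levels.

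Both best-known genes of glucose production, G6pc and Pck1, fell within the hour. G6pc is the gene of the glucose-6-phosphatase enzyme that frees glucose for export (ENSMUSG00000078650). It lies on the plus strand of chromosome 11 in GRCm38, from 101367561 to 101377903. Its normalised read counts were 14419, 22279 and 17062 in fasted and 3436, 2005 and 1700 in refed livers. The groups were far apart, and G6pc fell by 2.96 ± 0.28 on the log2 scale (SE, n = 3 per group, limma adjusted p = 4.19e-07). Pck1, which encodes the cytosolic phosphoenolpyruvate carboxykinase (ENSMUSG00000027513, chromosome 2, 173153048 to 173159273, plus strand), had 314013, 345245 and 269632 against 95482, 117619 and 129753. It fell by 1.44 ± 0.26 (limma adjusted p = 6.42e-04), again without overlap of the groups. Of the 12 gluconeogenic genes tested, all 12 had a log2 fold change below 0 and 3 were called as fallen, with a median of -0.26 against -0.016 over all genes. Other steps of the pathway were not called: the pyruvate carboxylase gene Pcx stood at -0.16 ± 0.12 (limma adjusted p = 0.476) and the fructose bisphosphatase gene Fbp1 at -0.24 ± 0.10 (limma adjusted p = 0.167). Under the treatment-label grouping 1 of the 12 fell, and Pck1 was not called (limma adjusted p = 0.108).

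Genes known to be driven by FOXO factors, or to carry the insulin signal, were changed in part, with 8 of 24 fallen and 2 risen. Igfbp1 encodes a secreted protein that binds insulin-like growth factors and is a classic insulin-repressed gene (ENSMUSG00000020429, chromosome 11, 7197782 to 7202546, plus strand). It was measured at 3219, 6147 and 3216 in fasted and at 831, 190 and 147 in refed livers. The refed library with 831 stood above the other two but below every fasted one, and Igfbp1 fell by 3.80 ± 0.57 (limma adjusted p = 7.33e-05), the largest fall under the rule for named genes. Irs2, an adaptor that couples the insulin receptor to its kinase cascade (ENSMUSG00000038894, chromosome 8, 10984681 to 11008458, minus strand), had 961, 1093 and 1107 against 304, 259 and 168. It fell by 2.15 ± 0.26 (limma adjusted p = 5.44e-06). Pik3r1, the regulatory subunit of the kinase that Irs2 recruits, moved the other way, from 3444, 3452 and 2710 to 5415, 7563 and 7963 (1.11 ± 0.14, limma adjusted p = 1.47e-05). Both promoters of the fallen genes are shown because they hold the insulin response sequence CAAAACA or its reverse complement TGTTTTG, in capitals. The bases are those of RefSeq on GRCm38.p6, read 5′ to 3′ on the gene's strand from 250 bases before the RefSeq gene start. They are chr11:7197537-7197781 (plus strand, with 5 bases next to the start left off, since the GENCODE gene begins there) and chr8:11008930-11009179 (minus strand).
Igfbp1: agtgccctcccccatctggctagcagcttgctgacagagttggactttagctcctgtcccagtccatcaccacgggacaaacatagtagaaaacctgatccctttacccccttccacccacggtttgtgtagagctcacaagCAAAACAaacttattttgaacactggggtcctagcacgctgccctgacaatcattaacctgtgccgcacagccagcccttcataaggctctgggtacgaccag
Irs2: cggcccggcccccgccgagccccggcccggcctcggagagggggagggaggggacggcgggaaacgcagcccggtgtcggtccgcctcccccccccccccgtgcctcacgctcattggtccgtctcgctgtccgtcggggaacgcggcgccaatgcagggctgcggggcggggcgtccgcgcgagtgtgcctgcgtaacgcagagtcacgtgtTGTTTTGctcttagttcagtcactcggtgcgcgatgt

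The match began 108 bases before the gene start in Igfbp1 and 37 bases before it in Irs2. In windows of 300 bases, from 250 before to 50 after the gene start and on either strand, CAAAACA was in 3 of the 8 promoters found for the 10 called genes of the list (37.5%) and in 6.24% of the 27025 promoters in the table. The core FOXO site GTAAACA was in 1 of the 8 (12.5%) and in 3.55% of all promoters, and the pair shown was chosen after its values were seen. A match is a description of the letters and not a bound site. The median of the 24 insulin and FOXO genes was -0.16. The ubiquitin ligase gene Fbxo32 fell by 1.69 ± 0.21 (230, 236 and 273 against 81, 86 and 62). Ccng2, an atypical cyclin gene induced by FOXO, fell by 1.20 ± 0.13 (676, 723 and 668 against 284, 317 and 299), and the transcription factor gene Klf15 changed by -0.93 ± 0.14. The groups did not overlap for these 3 genes. The insulin receptor gene Insr (-0.05 ± 0.08, limma adjusted p = 0.802) and Foxo1 itself (0.00 ± 0.20, limma adjusted p = 0.998) were not called. The count of risen members rests on few libraries, as it was 1 without fasted replicate 2, fasted replicate 3, refed 60 min replicate 2 or refed 60 min replicate 3. The number of fallen members was 5 on the 6 libraries alone and 4 with the treatment-label grouping, where Ccng2 was not called (limma adjusted p = 0.0673).

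Glucagon and cyclic AMP genes were mixed, with 3 of 22 risen and 3 fallen. Creb1, the transcription factor that cyclic AMP activates, rose by 0.41 ± 0.08 (825, 725 and 726 against 950, 961 and 1125), and Crem, which encodes a repressor of the same family, rose by 0.66 ± 0.14. The anchoring protein gene Akap12 rose by 1.06 ± 0.21. Pde4b, a phosphodiesterase that degrades cyclic AMP, fell by 1.09 ± 0.25 (879, 1160 and 1443 against 522, 535 and 546). Without fasted replicate 3 or refed 60 min replicate 3, on the 6 libraries alone or with the treatment-label grouping the number of fallen members was 1. The coactivator gene Ppargc1a stood at 0.27 ± 0.22 (limma adjusted p = 0.531), with fasted values of 1307, 1362 and 726 and refed values of 1806, 1086 and 1157 that overlapped.

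**Figure D2:**
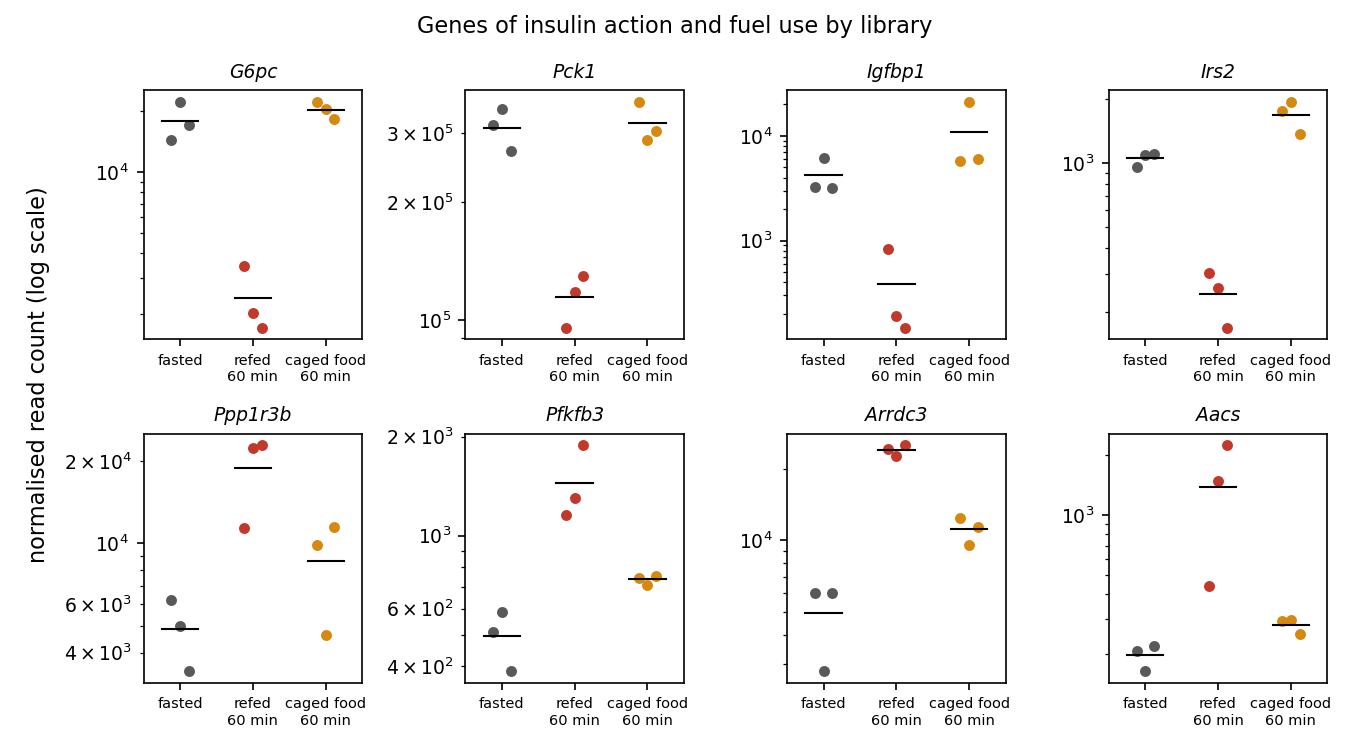
Normalised read counts (y axis, log scale) of 8 genes in fasted, refed 60 min and caged food 60 min livers, where each point is a library and each bar a mean of 3. In G6pc, Pck1, Igfbp1 and Irs2 the refed libraries lie below all others, and in Pfkfb3, Arrdc3 and Aacs above all others.

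On the side of glucose use, 4 of 25 glycolysis genes rose and 3 fell. Pfkfb3, whose enzyme makes the fructose 2,6-bisphosphate that speeds glycolysis, had 510, 584 and 386 in fasted and 1155, 1303 and 1883 in refed livers. It rose by 1.54 ± 0.24 (limma adjusted p = 1.45e-04). The arrestin-like genes of the list split: Arrdc3 rose by 2.37 ± 0.41 (5986, 2801 and 5974 against 24253, 22675 and 25104), whereas Arrdc4 fell by 0.89 ± 0.16 and the glucose-responsive gene Txnip by 0.53 ± 0.11. The glycolytic enzyme gene Gapdh rose by 0.77 ± 0.17, at low values (342, 341 and 258 against 580, 484 and 539) that may lack reads shared with its many pseudogenes, so its level is uncertain. The liver pyruvate kinase gene Pklr was not called (0.21 ± 0.17, limma adjusted p = 0.510). Of 20 genes of glycogen metabolism 1 rose and 2 fell. The one that rose was Ppp1r3b, which targets protein phosphatase to glycogen. It had 6211, 5016 and 3413 against 11406, 22205 and 22802, where refed replicate 1 was the lowest refed library and still above all fasted ones (1.92 ± 0.36, limma adjusted p = 9.05e-04). The liver glycogen synthase gene Gys2 stood at -0.17 ± 0.16 (limma adjusted p = 0.617). Those that fell were Phka2, a phosphorylase kinase subunit gene (-0.35 ± 0.08, limma adjusted p = 0.00683), and Gsk3b, a glycogen synthase kinase gene (-0.33 ± 0.11, limma adjusted p = 0.0467). Gsk3b lost its call without any 1 of fasted replicates 1 (limma adjusted p = 0.0577), 2 (0.229) and 3 (0.0747) or refed 60 min replicates 1 (0.245) and 2 (0.0558), on the 6 libraries alone (0.122), with the replicate block (0.0585) and grouped by treatment label (0.0797), and Phka2 without refed 60 min replicate 1 (0.0589) or on the 6 libraries alone (0.0724). Grouped by treatment label, 1 glycolysis gene fell, and Txnip was not called (limma adjusted p = 0.189).

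Lipid genes were called in part at 60 min, where 7.26% of all genes tested rose and 3.75% fell. Aacs, which activates ketone bodies for fat and sterol synthesis in the cytosol, rose, with 208, 164 and 220 in fasted and 438, 1486 and 2238 in refed livers (2.53 ± 0.46, limma adjusted p = 5.59e-04). Of 23 lipogenic genes 2 rose, Aacs and the fatty acid synthase gene Fasn (0.50 ± 0.12, limma adjusted p = 0.00895). The Fasn call was lost without fasted replicate 3 (limma adjusted p = 0.0623). Srebf1, the lipogenic transcription factor gene, had refed values of 1100, 2590 and 1701 on both sides of the fasted 1962, 2051 and 2277. Sterol genes varied among the refed libraries: the squalene epoxidase gene Sqle had 466, 704 and 1340 against 380, 230 and 356, and was called (1.27 ± 0.32, limma adjusted p = 0.00998) but not without fasted replicate 2 (0.0761) or refed 60 min replicate 3 (0.0987). Of 23 cholesterol genes 2 rose, and the number was 7 without refed 60 min replicate 1, 1 without fasted replicate 2 and 0 without refed 60 min replicate 3 or grouped by treatment label, where 8 of the 23 had an unadjusted p under 0.05 with all libraries. Of 31 genes of fatty acid oxidation and ketogenesis 3 fell and 29 were below 0, at a median of -0.15. Angptl4, a secreted inhibitor of lipoprotein lipase, fell by 2.03 ± 0.22 (7668, 6222 and 4377 against 1857, 1141 and 1441). The carnitine palmitoyltransferase gene Cpt1a was not called (-0.26 ± 0.12, limma adjusted p = 0.164). Without refed 60 min replicate 3, 1 of the 31 was called. Grouped by treatment label, none of the 31 was, and neither Angptl4 (limma adjusted p = 0.0744) nor Fasn (0.473) passed.

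**Figure D3:**
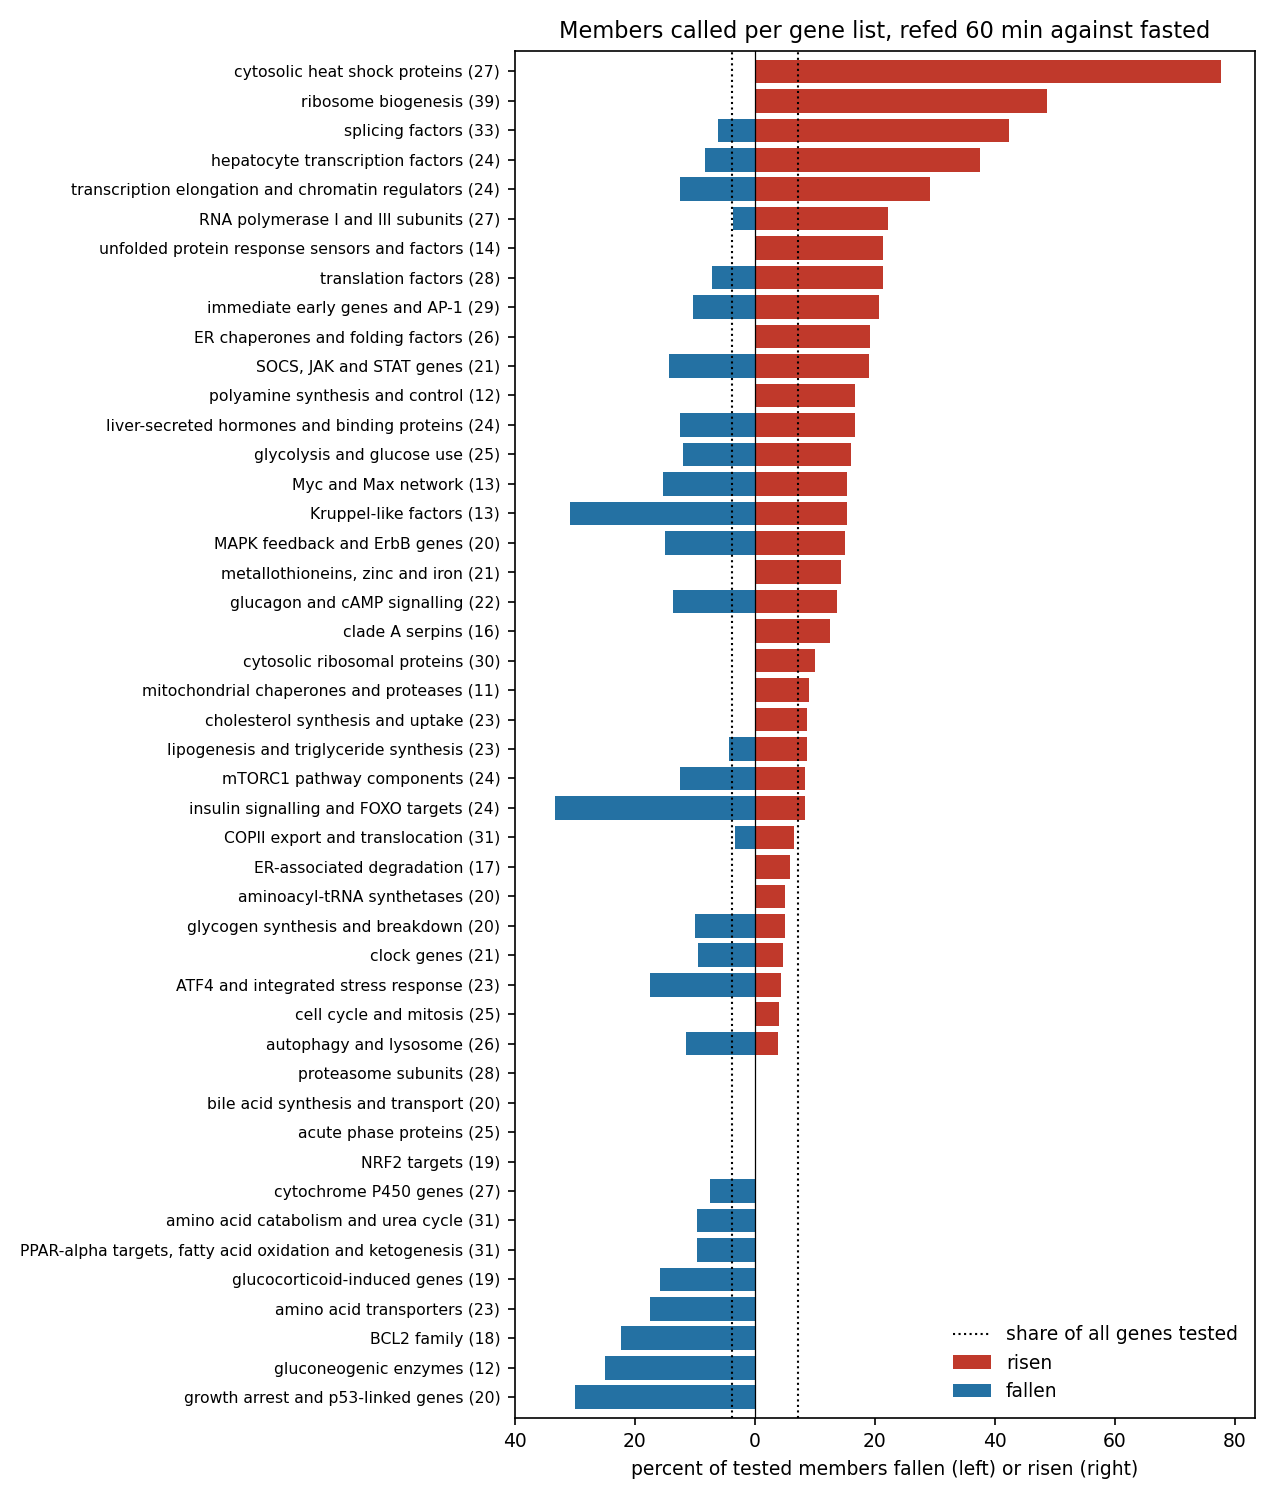
Share of the tested members of each gene list (number tested in parentheses) that fell (blue, to the left) or rose (red, to the right) at a limma adjusted p under 0.05. Dotted lines mark the shares of all genes tested, 7.26% risen and 3.75% fallen. Cytosolic heat shock, ribosome biogenesis and splicing genes have the longest red bars.

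Cytosolic heat shock genes rose more widely than any other list described, with 21 of 27 risen and the other 6 not called, at a median of 0.64. Heat shock proteins are chaperones that hold or refold unfolded proteins, and their genes are activated by the factor HSF1. Hspa1b, an inducible HSP70 gene with a single exon (ENSMUSG00000090877, chromosome 17, 34956436 to 34959238, minus strand), had 77, 85 and 40 in fasted and 844, 742 and 1333 in refed livers. The refed values were far above the fasted ones (3.86 ± 0.41, limma adjusted p = 1.39e-06). Its neighbour Hspa1a was low throughout (6, 4 and 4 against 13, 30 and 61), and reads of these near-identical genes may be split or lost in counting, so their levels are uncertain. Their promoters are shown to make this likeness visible, with the pair of inverted nGAAn units that HSF1 is known to bind, GAANNTTC, in capitals. Both are from RefSeq on GRCm38.p6, the 250 bases before the gene start, on the minus strand at chr17:34959239-34959488 and chr17:34972157-34972406.
Hspa1b: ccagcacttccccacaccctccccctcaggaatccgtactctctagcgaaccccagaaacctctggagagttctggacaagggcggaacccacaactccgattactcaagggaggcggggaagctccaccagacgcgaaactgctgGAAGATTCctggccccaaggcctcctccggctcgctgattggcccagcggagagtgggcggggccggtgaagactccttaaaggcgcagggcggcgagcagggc
Hspa1a: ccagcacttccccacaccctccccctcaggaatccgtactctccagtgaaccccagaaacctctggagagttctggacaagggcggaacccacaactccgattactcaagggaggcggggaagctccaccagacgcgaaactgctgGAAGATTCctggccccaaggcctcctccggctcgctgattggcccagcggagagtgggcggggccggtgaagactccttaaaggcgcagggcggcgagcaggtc

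The match began 104 bases before the start in both, and 247 of the 250 bases were the same. In the 300-base windows GAANNTTC, which is its own reverse complement, was in 9 of the 17 promoters found for the 21 called heat shock genes (52.94%) against 7.95% of all promoters in the table. TTCNNGAA, the other arrangement of the units, was in 3 of the 17 (17.65%) and in 8.40% of all promoters. Among the other HSP70 and HSP90 genes, Hspa8, the constitutive HSP70 gene, rose by 0.88 ± 0.15 (5015, 5047 and 4201 against 8609, 8200 and 9357), and Hsp90aa1, the inducible HSP90 gene, by 1.32 ± 0.20 (739, 875 and 779 against 1965, 1680 and 2381). The groups did not overlap in either. Co-chaperones rose with them. Hsph1, which resets the nucleotide state of HSP70, had 1535, 1495 and 1315 against 5463, 5918 and 7985 (2.14 ± 0.18, limma adjusted p = 2.15e-07). Bag3, which hands HSP70 clients to autophagy, had 1321, 1206 and 1133 against 3412, 3258 and 3973 (1.54 ± 0.15). Dnajb1, a J-domain partner of HSP70, rose by 1.49 ± 0.15, and Chordc1, a partner of HSP90, by 1.12 ± 0.16. Hsf1 itself rose by 0.38 ± 0.08 (736, 706 and 680 against 1019, 921 and 824), while Hsf2 (0.04) and the small heat shock gene Hspb1 (0.66, limma adjusted p = 0.391) were not called. Under the treatment-label grouping 13 heat shock genes were called, and Hspa8 was not (limma adjusted p = 0.0853), while on the 6 libraries alone Hsf1 was not (0.053).

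ER chaperones followed at a smaller scale. Of 26 genes 5 rose, at a median of 0.20. Hspa5, the ER form of HSP70, had 21580, 29690 and 27790 in fasted and 52684, 45100 and 52536 in refed livers (0.94 ± 0.22, limma adjusted p = 0.00586). Creld2, a disulphide isomerase-like gene of ER stress, rose by 1.49 ± 0.33 (850, 1124 and 946 against 3393, 2281 and 2579), and the secreted ER stress gene Manf by 1.11 ± 0.26. The ER chaperone gene Hyou1 rose by 0.92 ± 0.21. In all 4 genes each refed library was above each fasted one. Among the genes of the unfolded protein response, Xbp1, whose spliced form is its main transcription factor, rose by 0.77 ± 0.11 (8099, 8953 and 8938 against 13040, 15862 and 15409). Ddit3, which encodes CHOP, rose by 1.65 ± 0.21 (325, 284 and 277 against 1202, 854 and 780). Grouped by treatment label, none of the 5 ER chaperones passed (adjusted p of Hspa5 0.255, Creld2 0.210, Manf 0.239 and Hyou1 0.316, all by limma), whereas Xbp1 and Ddit3 did.

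The ATF4 branch, which answers amino acid shortage, went down in part while Ddit3 rose. Trib3, a pseudokinase that restrains Akt, had 1164, 1241 and 1162 in fasted and 285, 257 and 331 in refed livers (-2.03 ± 0.28, limma adjusted p = 2.60e-05). Sesn2, a leucine sensor that restrains mTORC1, had 931, 1219 and 1104 against 335, 326 and 248 (-1.84 ± 0.20). In both the groups were well apart. Chac1, a glutathione-degrading enzyme gene, fell from 58, 69 and 72 to 9, 19 and 16 (-2.16 ± 0.58, limma adjusted p = 0.0159), but its call was lost without fasted replicate 2 (0.0545), fasted replicate 3 (0.0578) or refed 60 min replicate 1 (0.0732). Atf4 itself stood at 0.17 ± 0.10 (limma adjusted p = 0.309), and the asparagine synthetase gene Asns at -0.74 ± 0.76 (limma adjusted p = 0.640). Of the 23 genes of this list, 4 fell and 1 rose, and 2 fell without fasted replicate 2 or 3. Amino acid transporters fell as well, 4 of 23. Slc38a2, the system A transporter that amino acid shortage induces, went from 6333, 8362 and 5262 to 2553, 2975 and 3426 (-1.14 ± 0.21, limma adjusted p = 7.43e-04). Slc7a2, which carries arginine, fell by 0.66 ± 0.13 and the hepatic system A gene Slc38a4 by 0.51 ± 0.10. Under the treatment-label grouping 1 transporter fell, and these last 2 calls did not hold (limma adjusted p of 0.467 and 0.231).

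Genes of ribosome production rose together. Of 39 ribosome biogenesis genes 19 rose and the other 20 were not called, at a median of 0.36, and 37 of 39 were above 0. Nop56 and Nop58, core proteins of the small nucleolar RNPs that guide rRNA methylation, were the furthest changed of the named members. Nop56 had 551, 649 and 660 in fasted and 1725, 1182 and 1141 in refed livers (1.10 ± 0.13, limma adjusted p = 5.94e-06). Nop58 had 924, 820 and 859 against 2380, 1674 and 1825 (1.16 ± 0.15). In both, refed replicate 1 was the highest library. Nolc1, a nucleolar scaffold, rose by 1.02 ± 0.13, Rrs1, of the large subunit pathway, by 0.97 ± 0.10, and Nip7, a factor of pre-rRNA processing, by 0.91 ± 0.11. The genes of the abundant nucleolar proteins nucleolin and nucleophosmin were not called, with Ncl at 7444, 7921 and 8020 against 7774, 7000 and 8695 and Npm1 at 0.01 ± 0.08 (limma adjusted p = 0.971). Under the treatment-label grouping 11 of the 39 were called.

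The polymerases that transcribe rRNA and tRNA genes moved with them, with 6 of 27 genes risen and 1 fallen at a median of 0.23. Rrn3, which recruits RNA polymerase I to the rRNA genes, rose by 0.82 ± 0.11 (965, 889 and 839 against 1507, 1562 and 1695). The one that fell was Maf1, the repressor of RNA polymerase III that mTORC1 inactivates, from 1211, 1263 and 1331 to 881, 797 and 844 (-0.59 ± 0.08, limma adjusted p = 1.61e-05). Neither gene had overlapping groups. Of cytosolic ribosomal protein genes 3 of 30 rose, at a median of -0.05. Of translation factors 6 of 28 rose, among them the RNA helicase gene Eif4a1 (0.47 ± 0.08), and 3 rose without fasted replicate 1, fasted replicate 3, refed 60 min replicate 1 or refed 60 min replicate 3. The elongation factor gene Eef2 fell by 0.42 ± 0.09, a call lost under quantile normalization (limma adjusted p = 0.148). In the Myc network, Max, the partner of Myc, rose by 0.49 ± 0.09, while the opposing factor gene Mnt fell from 674, 527 and 692 to 380, 298 and 271 (limma adjusted p = 8.70e-05). The family member Mycl changed by -1.46 ± 0.18. Myc, at 379, 968 and 676 against 213, 322 and 356, lay above the fasted libraries in all 3 refed ones but was not called (1.11 ± 0.49, limma adjusted p = 0.173). With the treatment-label grouping 3 polymerase genes and 2 translation factor genes rose, and Maf1 (limma adjusted p = 0.0614), Eef2 (0.054) and Mycl (0.0735) were not called.

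**Figure D4:**
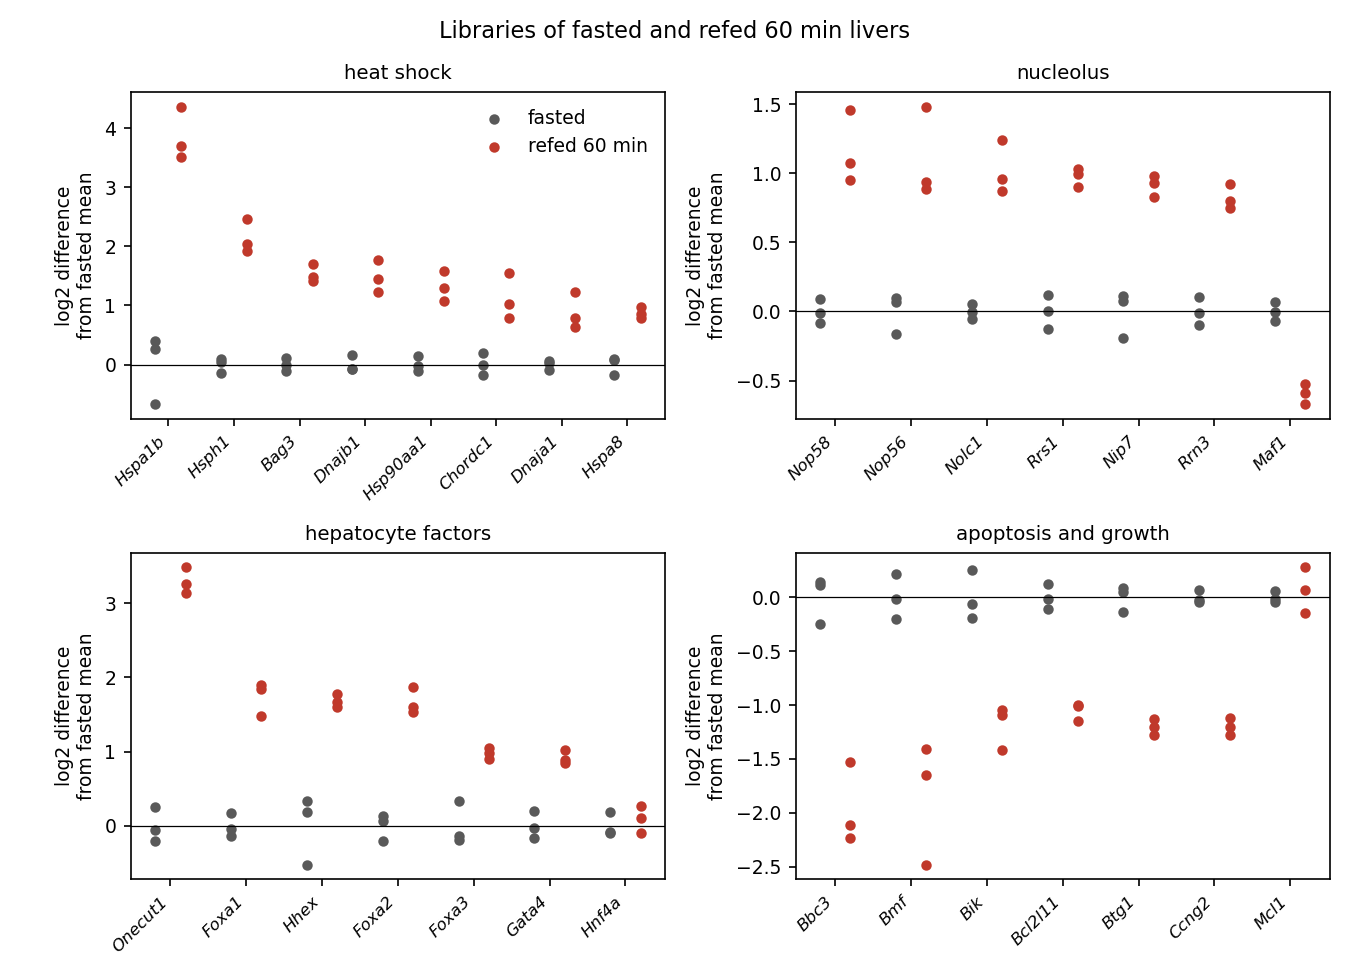
Log2 difference of each fasted (grey) and refed 60 min (red) library from the fasted mean (y axis) for genes of 4 roles (x axis), where each point is 1 of 3 libraries per group. The groups separate for all genes plotted except Hnf4a and Mcl1, and Maf1 lies below 0 among nucleolar genes that lie above it.

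Several transcription factors of liver identity rose within the hour. Of 24 hepatocyte transcription factor genes 9 rose, and between 7 and 9 did over the alternatives. Onecut1, which encodes HNF6 (ENSMUSG00000043013, chromosome 9, 74861921 to 74891781, plus strand), had 454, 333 and 369 in fasted and 3657, 4278 and 3370 in refed livers. It rose by 3.29 ± 0.31 (limma adjusted p = 4.19e-07), and its relative Onecut2 by 0.86 ± 0.12. The pioneer factor genes of the FOXA family rose as well. Foxa1 had 743, 794 and 921 against 2278, 3048 and 2932 (1.74 ± 0.19), Foxa2, which is known to be regulated by fasting and insulin, had 1464, 1213 and 1522 against 4041, 5107 and 4242 (1.67 ± 0.19), and Foxa3 rose by 0.97 ± 0.14. Hhex, a homeobox gene of liver development, had 2970, 1817 and 3296 against 7940, 8299 and 8920 (1.68 ± 0.23). Gata4 rose by 0.92 ± 0.10 (1044, 951 and 1219 against 1966, 2172 and 1923). For each of these genes all refed libraries were above all fasted ones, which the rule for named genes required of Onecut1. The abundant factor genes Hnf4a (0.09 ± 0.12, limma adjusted p = 0.726) and Cebpa (0.09 ± 0.11, limma adjusted p = 0.704) were not called, and the median of the list was -0.0047 (-0.0388 to 0.0482 over the alternatives). Another 2 members fell, Cebpb (-1.23) and Prox1 (-0.37), a count of 0 or 1 when any 1 of the 6 libraries was left out. Cebpb was not called with the treatment-label grouping (limma adjusted p = 0.0953). Of the 24 genes, 12 were above 0 and 12 below.

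Some genes that promote cell death or hold back growth fell. Of 18 BCL2 family genes 4 fell and the other 14 were not called. All 4 encode BH3-only proteins, which set off apoptosis by binding the BCL2-like survival proteins. Bbc3, which encodes PUMA, had 464, 608 and 597 in fasted and 191, 127 and 117 in refed livers (-1.96 ± 0.17, limma adjusted p = 2.15e-07). Bmf had 708, 944 and 804 against 145, 305 and 258 (-1.85 ± 0.35), Bik fell by 1.18 ± 0.17 and Bcl2l11, which encodes BIM, by 1.05 ± 0.14. No library of one group overlapped the other for these 4, which were chosen because they were called on the same libraries. The survival gene Mcl1 stood at 0.07 ± 0.10 (limma adjusted p = 0.775). With the treatment-label grouping Bmf and Bcl2l11 were not called (limma adjusted p of 0.141 and 0.0643). Of 20 growth arrest genes 6 fell, and 3 did without fasted replicate 2. They include the antiproliferative gene Btg1, with 801, 913 and 933 against 382, 402 and 363 (-1.20 ± 0.15), and Gas1, with 684, 857 and 1045 against 378, 538 and 379 (limma adjusted p = 6.68e-04). Grouped by treatment label, 2 of the 20 fell.

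Feedback genes of cytokine and growth factor receptors changed in both directions. Cish, a suppressor of STAT5 signalling that growth hormone is known to induce (ENSMUSG00000032578, chromosome 9, 107296026 to 107302784, plus strand), had 487, 287 and 423 in fasted and 2654, 3644 and 3435 in refed livers (3.04 ± 0.37, limma adjusted p = 5.55e-06). Socs2, of the same family, had 697, 189 and 673 against 2080, 2027 and 2619 (2.32 ± 0.48, limma adjusted p = 0.00193), with fasted replicate 2 the lowest of all. The kinase genes Pim1 and Pim3, which STAT factors are known to induce, fell (-1.14 ± 0.18 and -1.43 ± 0.29). Socs3 was not called (0.26 ± 0.37, limma adjusted p = 0.745). Of the 21 genes of this list, 4 rose and 3 fell. In a second list, of 20 genes of ErbB receptors and MAP kinase feedback, 3 rose and 3 fell. Over the alternatives 0 to 4 of the second list rose and 1 to 3 fell. Erbb3, a receptor for neuregulins, had 9722, 10587 and 11559 against 4164, 3846 and 3836 (-1.42 ± 0.14, limma adjusted p = 4.87e-07), while the epidermal growth factor receptor gene Egfr was not called (0.13 ± 0.31). The ERK phosphatase gene Dusp6 rose by 1.17 ± 0.27 (1192, 926 and 1517 against 2156, 2839 and 3140). With the treatment-label grouping 1 of the 21 genes of the first list fell, and Pim3 (limma adjusted p = 0.0573) and Dusp6 (0.0604) were not called.

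Immediate early genes went both ways at this time, with 6 of 29 risen and 3 fallen at a median of 0.34. Atf3, a stress-induced bZIP factor, had 32, 30 and 46 in fasted and 189, 121 and 278 in refed livers (2.36 ± 0.27, limma adjusted p = 3.45e-06). Klf4 rose by 1.69 ± 0.26 (104, 64 and 67 against 227, 228 and 297) and Ier5, which is tied to heat shock factor activity, by 0.87 ± 0.15. Junb, an AP-1 subunit, had 1532, 1861 and 1599 against 634, 647 and 598 (-1.40 ± 0.23), and Zfp36, which destabilises AU-rich mRNAs, fell by 0.84 ± 0.20. The groups of each of these genes were apart. Fos had 30, 36 and 36 against 84, 61 and 67 and was not called (1.03 ± 0.42, limma adjusted p = 0.128), nor was Egr1 (-0.31 ± 0.38). Without fasted replicate 3 the number of risen members was 3. The cyclic AMP response element TGACGTCA was in 1 of the 9 promoters found for the called genes of this list (11.11%), that of the antiproliferative gene Btg2, and in 1.88% of all promoters in the table. Among Kruppel-like factors Klf11 fell most, from 519, 495 and 445 to 141, 135 and 141 (-1.80 ± 0.16, limma adjusted p = 2.42e-07). Of clock genes, Per2 rose by 1.35 ± 0.29 (1191, 1110 and 851 against 1771, 2641 and 4031) and Cry2 fell by 0.69 ± 0.11. The Per2 and Cry2 groups did not overlap, and clock time was not matched. With the treatment-label grouping Zfp36 (limma adjusted p = 0.0819) and Per2 (0.057) were not called.

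RNA processing genes rose in number but by small amounts. Of 33 splicing factor genes 14 rose and 2 fell, at a median of 0.23, and 9 rose without refed 60 min replicate 3 or on the 6 libraries alone. Srsf7 rose by 0.84 ± 0.11 (1091, 1123 and 974 against 1942, 1810 and 1930), and its relatives Tra2a and Tra2b by 0.97 ± 0.15 and 0.59 ± 0.12. The 2 cold-inducible RNA-binding proteins went apart: Rbm3 rose by 0.80 ± 0.10 (618, 570 and 562 against 1093, 944 and 1015) and Cirbp fell by 0.96 ± 0.13 (1942, 2339 and 2502 against 1457, 1074 and 993). Body temperature is not given in the sources used here. Of 24 elongation and chromatin genes 7 rose and 3 fell, among them Ccnt1, the cyclin of the elongation factor P-TEFb, which rose by 0.75 ± 0.09. Hexim1, which holds P-TEFb inactive, rose by 0.54 ± 0.12, though not with the treatment-label grouping (limma adjusted p = 0.0901), where 3 of the 24 rose. Amd1, which supplies the aminopropyl donor of polyamine synthesis, rose from 162, 107 and 138 to 272, 314 and 332 (1.18 ± 0.16).

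The largest rises by the rule for named genes include several genes outside these groups. Serpina9, a clade A serpin gene (ENSMUSG00000058260, chromosome 12, 103994743 to 104013755, minus strand), was near 0 in fasted livers (3, 1 and 0) and at 110, 215 and 161 after 60 min (6.30 ± 0.66, limma adjusted p = 1.39e-06), a fitted value that depends on the pseudocount. The nearby pseudogene Serpina4-ps1 on chromosome 12 (104080649 to 104086724, plus strand) had 384, 270 and 306 against 3974, 10511 and 8170 (4.46 ± 0.44), and reads shared with its serpin relatives make its level uncertain. Of 16 clade A serpin genes 2 rose, at a median of -0.0349 (-0.0997 to 0.0970 over the alternatives), and the number was 1 without each of fasted replicates 1, 2 and 3 and refed 60 min replicates 2 and 3. Nrep had 405, 277 and 355 against 1363, 3104 and 3669 (2.87 ± 0.55), and Phlda1, a feedback gene of growth factor signals, had 776, 668 and 926 against 3540, 6070 and 4995 (2.60 ± 0.40). Prok1, a secreted prokineticin, had 30, 21 and 39 against 235, 212 and 158 (2.73 ± 0.46), a call lost with the treatment-label grouping (limma adjusted p = 0.0654). Actg1 rose by 2.41 ± 0.52 from values as low as 14, 25 and 29, which are uncertain because of actin pseudogenes. The largest other falls were those of Arl4d, a small GTPase gene (1049, 1989 and 1532 against 287, 231 and 288, -2.46 ± 0.24), R3hdml (-2.58 ± 0.31), Pkdrej (-2.02 ± 0.33), Hmcn2 (-1.98 ± 0.29) and the mitochondrial carrier gene Slc25a25 (-1.95 ± 0.39). All refed libraries lay beyond all fasted ones for the genes of this paragraph, which the rule required.

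In several other functions of the liver no gene was called with all libraries, while cytochrome P450 and autophagy genes were called in part. By limma no member passed among 28 proteasome genes (0 at an unadjusted p under 0.05), 25 acute phase genes (2), 19 NRF2 targets (2) and 20 bile acid genes (5). Fitted on the 6 libraries alone, 4 acute phase genes were called as risen. With all libraries the list medians were 0.02 for proteasome, 0.09 for acute phase, 0.12 for NRF2 and -0.16 for bile acid genes. A change of 1.5-fold was called for 46.3% of 67 genes in simulated data, in which fewer genes changed than were called here. That share need not hold for the real libraries, but small changes in these lists could be missed. Of 27 cytochrome P450 genes 2 fell, where 3.75% of all genes tested fell. Their median was -0.16 (0.0169 without refed 60 min replicate 1). The number fallen was 0 without fasted replicate 2, fasted replicate 3 or refed 60 min replicate 1. It was 1 without refed 60 min replicate 2 or 3. Among 26 autophagy and lysosome genes 3 fell and 1 rose, where 3.75% of all genes tested fell and 7.26% rose. The kinase gene Ulk1, which starts autophagy, fell by 0.45 ± 0.09 (4831, 4377 and 4168 against 3209, 3575 and 2992), and Atg16l1 rose by 0.52 ± 0.09. With the treatment-label grouping no member fell (limma adjusted p of Ulk1 0.277).

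To place 60 min within refeeding, the same 3 libraries were set against livers refed for 30 and 120 min. Against 30 min, 929 of 15932 genes differed (5.83%; 539 higher at 60 min, 3.38%, and 390 lower, 2.45%), and against 120 min 750 did (4.71%; 405 higher, 2.54%, and 345 lower, 2.17%). These comparisons share the refed 60 min libraries with each other and with the one above. Ribosome biogenesis genes were higher than at 30 min in 23 of 39 (median 0.41). This number was 12 without refed 30 min replicate 1, and 15 without refed 30 min replicate 3 or refed 60 min replicate 1. Against 120 min 1 of 39 was higher and 1 lower (median -0.10), and 7 were lower without refed 60 min replicate 1. For Nop56, refed 30 min livers had 670, 889 and 709 and refed 120 min livers 1104, 1058 and 1110, next to the 1725, 1182 and 1141 of 60 min. Glucose-6-phosphatase fell within the same interval. G6pc had 17431, 15185 and 25254 at 30 min, all above the 60 min libraries (-3.05 ± 0.28 at 60 min, limma adjusted p = 2.04e-06), and 2248, 1385 and 1393 at 120 min, which overlapped with them (0.48 ± 0.28, limma adjusted p = 0.424). Pck1 was still on its way, with 305565, 289945 and 282356 at 30 min and 42331, 26914 and 23431 at 120 min, below every library of 60 min (1.92 ± 0.26 higher at 60 than at 120 min, limma adjusted p = 1.11e-04). Cish, by contrast, was already at 3665, 3670 and 2813 at 30 min, overlapping with 60 min (-0.06 ± 0.37, limma adjusted p = 0.961). By 120 min it was at 463, 726 and 358 (2.70 ± 0.37 higher at 60 min, limma adjusted p = 9.76e-05). ER chaperones were lower at 60 than at 120 min in 9 of 26 (median -0.45), such as Hyou1 with 17746, 25613 and 21159 at 120 min (-1.04 ± 0.21, limma adjusted p = 0.00496). The number was 3 without refed 60 min replicate 2 or refed 120 min replicate 2, and 4 without refed 60 min replicate 3. The count against 30 min was 376 without refed 30 min replicate 1 and 538 without refed 30 min replicate 3. The count against 120 min was 499 without refed 60 min replicate 2 or refed 120 min replicate 2, 379 without refed 60 min replicate 3 and 357 without refed 120 min replicate 3.

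Some genes were at their highest or lowest at 60 min. Tested against the midpoint of the log2 levels at 30 and 120 min, 384 genes differed (2.41%), 198 above the midpoint (1.24%) and 186 below (1.17%). Such a difference alone does not make 60 min the highest or lowest time. Cish was called here although its libraries of 30 and 60 min overlapped. Onecut1 was higher than at either time, with 814, 1640 and 668 at 30 min and 1098, 1294 and 1146 at 120 min (1.82 ± 0.27 above the midpoint, limma adjusted p = 4.24e-04). Foxa1 had 1623, 1834 and 1478 and then 1267, 959 and 948 (1.06 ± 0.17, limma adjusted p = 8.02e-04), and Ikzf4, an Ikaros family factor gene, had 112, 125 and 86 and then 79, 93 and 72, next to 260, 305 and 236 at 60 min (1.51 ± 0.22). For these 3 genes no library of the other refed times up to 120 min reached those of 60 min. The rule for genes named from this contrast required this, or its reverse for genes below the midpoint. Arrdc3 stood 1.53 ± 0.36 above the midpoint (limma adjusted p = 0.0203), a call lost without refed 60 min replicate 1 (0.0641), 2 (0.0618) or 3 (0.0986) or refed 120 min replicate 1 (0.0506). The ubiquitin ligase gene Lonrf1 stood 1.06 ± 0.22 above it, with its call lost without refed 60 min replicate 3 (limma adjusted p = 0.0917). Irs2 was lowest at 60 min, with 958, 664 and 900 at 30 min and 510, 523 and 718 at 120 min (-1.54 ± 0.22, limma adjusted p = 3.96e-04). The potassium channel gene Kcnk5 (-1.45 ± 0.28), R3hdml (-1.93 ± 0.27), Pkdrej (-1.68 ± 0.28) and E2f2, an E2F factor of the cell cycle (-1.61 ± 0.27), were below the midpoint as well. E2f2 did not pass against fasted livers (-0.81 ± 0.31, limma adjusted p = 0.104). The number against the midpoint was 252 without refed 60 min replicate 2, 154 without refed 60 min replicate 3 and 237 without refed 30 min replicate 1.

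**Figure D5:**
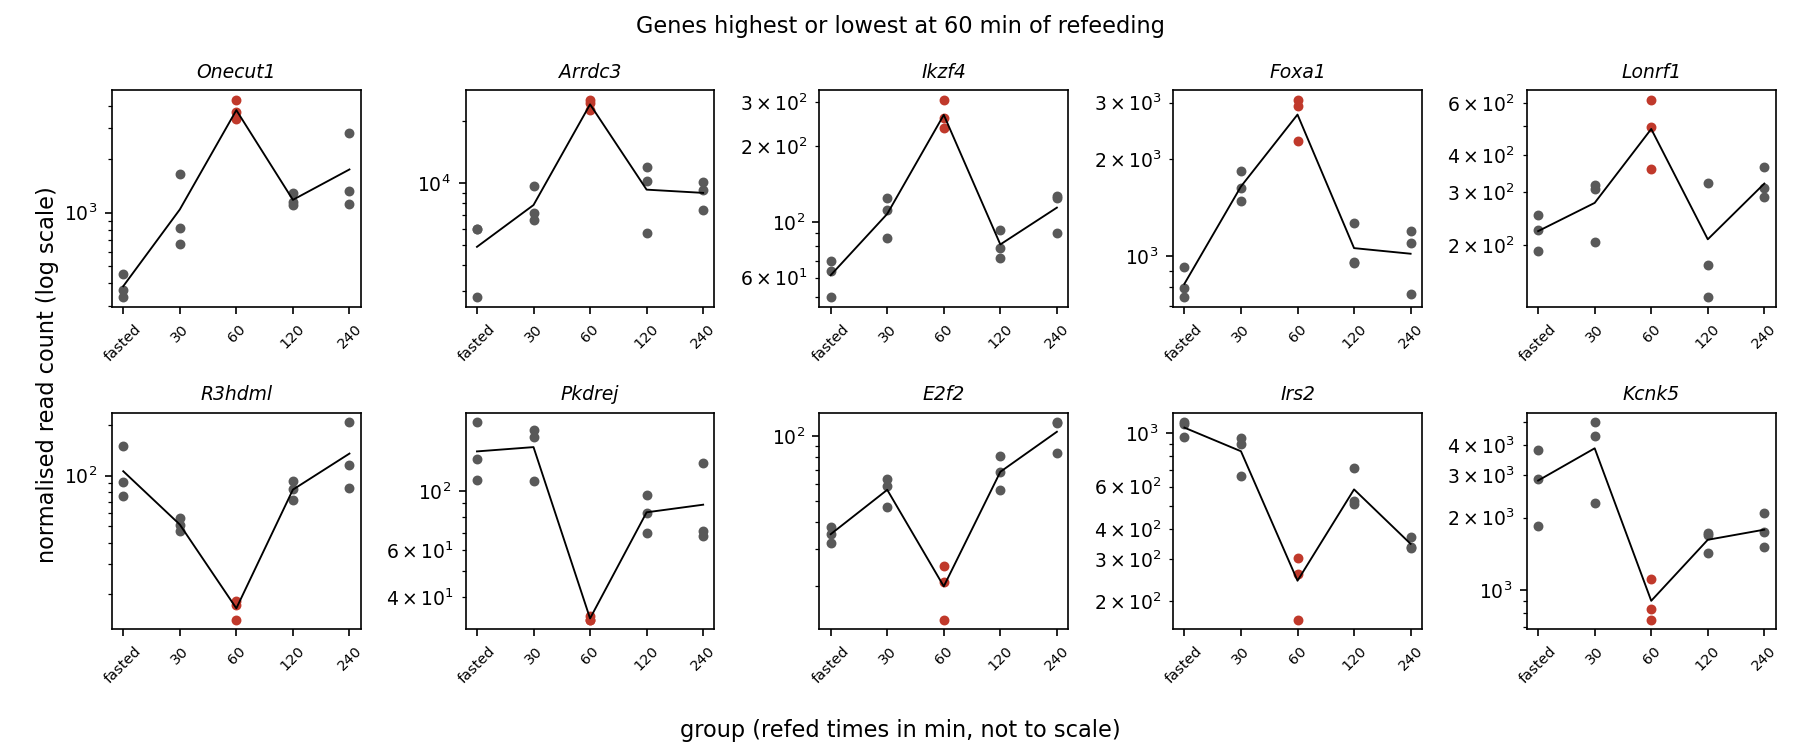
Normalised read counts (y axis, log scale) of the 5 genes furthest above and the 5 furthest below the midpoint of 30 and 120 min, in fasted livers and at each refed time (x axis, not to scale), where each point is a library, red marks 60 min and the line joins means of 3. Each gene has its highest or lowest mean at 60 min, where the rule for named genes required libraries beyond those of 30 and 120 min. The values at 240 min include 1 refed library of conflicting labels.

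Eating was then set against the offer of food in a cage for the same 60 min, a comparison matched in time since food was presented. Here 1738 genes differed (10.9%), 1072 higher in refed livers (6.73%) and 666 lower (4.18%). It shares the refed 60 min libraries with the comparisons above. Caged food replicate 2 stood apart, at -35.88 on the second principal component where the other caged food libraries were at 18.54 and 8.48. Its leukocyte markers summed to 2596 and its Kupffer cell markers to 45547, against 589 and 717 and 16742 and 19422 in the other caged food libraries. Its 25 acute phase genes summed to 4468642, against 1906452 and 1520754, and their median log2 difference was -0.73 with it and -0.16 without it. Without this library 1440 genes differed, 852 higher and 588 lower, and the part of these markers in the other results was not tested. Igfbp1 had 5769, 21143 and 5979 in caged food livers, all above the refed ones (-4.97 ± 0.57 in refed livers, limma adjusted p = 2.97e-06). Caged food replicate 2 was the highest of all. The rule for genes named from this comparison required groups that do not overlap. G6pc had 22309, 20459 and 18430 (-3.16 ± 0.28), Irs2 had 1767, 1947 and 1375 (-2.82 ± 0.26), and Angptl4 had 11933, 8289 and 11672 (-2.85 ± 0.22). Chac1 was lower in refed livers by this comparison too (-3.20 ± 0.58, limma adjusted p = 6.39e-04). On the other side Onecut1 had 222, 178 and 182 in caged food livers (4.27 ± 0.31 higher in refed ones, limma adjusted p = 9.24e-09), Cish 245, 226 and 173 (3.91 ± 0.37) and Serpina9 3, 1 and 6 (5.36 ± 0.66). Without caged food replicate 2 these 8 genes were still called, with Igfbp1 at -4.36, G6pc at -3.16, Irs2 at -2.72, Angptl4 at -3.02, Chac1 at -2.52, Onecut1 at 4.21, Cish at 3.96 and Serpina9 at 4.89. The heat shock genes were higher in refed livers in 15 of 27 (median 0.42), such as Hsph1, which had 2515, 2317 and 2393 in caged food livers (limma adjusted p = 1.08e-05). The number was 10 without caged food replicate 2. Ribosome biogenesis genes were higher in 19 of 39 (median 0.29), and in 17 without that library. Of 26 ER chaperones 1 was higher and 2 were lower, at a median of -0.11 (0.082 without caged food replicate 2), and none was called without refed 60 min replicate 1. Hspa5 had 34443, 54080 and 31038 in caged food livers, overlapping with the refed ones (0.37 ± 0.22, limma adjusted p = 0.328). Slc25a25 had 5076, 4621 and 3832 in caged food livers, which overlapped with the refed 2915, 4075 and 5095 (-0.19 ± 0.39, limma adjusted p = 0.826). Fitted on the 6 libraries alone, 465 genes passed, and grouped by treatment label 908 did.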

How the data were processed

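Polyadenylated RNA of 27 liver libraries (9 groups of 3) was measured, of which 6 make up the main comparison. Per the submitters' processing notes, reads were aligned with STAR 2.4.0a to mm10 (GRCm38) and counted per gene with featureCounts 1.4.5-p1. The deposited values are a score, whole numbers that the authors made from read counts by dividing by a scaling factor per library, and the scaling method is not given in the sources used here. The value of 1 read, and from it the depth, was estimated from the steps between low values. Replicates are separate samples in the labels, which do not say whether each is a separate mouse, so p-values measure the spread between samples.

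Genes with at least 10 in at least 3 libraries (15932) were fitted with limma 3.58.1 (R 4.3.3) on log2 of the value plus a pseudocount of 1, over all 27 libraries in their 9 groups with a trended prior variance, and p-values were adjusted by Benjamini-Hochberg with a threshold of 0.05. Samples were grouped by title. The tests were two-sided and compared refed 60 min with fasted, with refed 30 min, with refed 120 min, with their midpoint and with caged food 60 min. Replicate numbers were not used to pair the samples. On simulated data, 46.3% of 1.5-fold, 74.6% of 2-fold and 80.3% of 4-fold changes between refed 60 min and fasted were recovered. Fewer genes changed in the simulation than were called in the real data, so these shares need not hold there. Named genes are the 12 largest rises and 12 largest falls whose groups do not overlap and whose higher group averages 50 or more. They also include up to 6 called members of each list in each direction and members singled out for their role. The rest are the 5 largest each way against the midpoint and against caged food, held to the same conditions on overlap and level. Members and gene lists were chosen with earlier results of these data known. Coordinates are from GENCODE M21 and promoters from the RefSeq table of GRCm38.p6. Alternatives were another normalization, pseudocount, filter, grouping, set of libraries and a replicate block. 1 gene that meets the rule is not reported here.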

Additional observations from a re-analysis of the deposited data

Results flagged for a closer look

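Several effects of refeeding differed between times, by a test of the difference itself. Refed 60 min livers differed from refed 30 min livers in 929 genes and from refed 120 min livers in 750, and 384 genes differed from the midpoint of both times. Above the midpoint on the log2 scale were the HNF6 gene Onecut1 (1.82), Arrdc3 (1.53), Ikzf4 (1.51), Foxa1 (1.06) and Lonrf1 (1.06). Below it were R3hdml (-1.93), Pkdrej (-1.68), E2f2 (-1.61), Irs2 (-1.54) and Kcnk5 (-1.45). All 10 are by limma at an adjusted p under 0.05.

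Refeeding and caged food for the same 60 min differed in 1738 genes. Higher in refed livers on the log2 scale were Serpina9 (5.36), Serpina4-ps1 (4.65), Onecut1 (4.27) and Cish (3.91). Lower were Igfbp1 (-4.97), Chac1 (-3.20), G6pc (-3.16), Angptl4 (-2.85) and Irs2 (-2.82). None of these 9 calls was lost when any 1 library of either group was left out.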

How the results depend on the processing

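No named gene called against fasted livers changed direction under the alternatives run, but list medians near 0 did: without refed 60 min replicate 1, glycolysis genes went from -0.055 to 0.0419, Kruppel-like factors from -0.1029 to 0.0921 and cytochrome P450 genes from -0.1605 to 0.0169. The counts moved most with the samples that set the spread. With the groups compared fitted alone, 1153 genes differed from fasted livers (767 risen, 386 fallen), 326 from refed 30 min, 283 from refed 120 min, 198 from the midpoint and 465 from caged food 60 min. With the 2 conflicting libraries grouped by treatment label the numbers were 901 (655 risen, 246 fallen), 242, 252, 139 and 908, and the median residual SD on the log2 scale was 0.22 in place of 0.19. Leaving out 1 library at a time gave 1131 to 1553 genes against fasted (789 to 1008 risen, 342 to 545 fallen), 376 to 812 against 30 min, 357 to 799 against 120 min, 154 to 383 against the midpoint and 1204 to 1700 against caged food. Without the libraries that stand apart, an alternative chosen after seeing the data, 456 genes differed from refed 30 min. Of 191 named genes called against fasted, 129 were called without any 1 library and 97 in every alternative.

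Same-numbered samples showed no clear shared deviation (correlations of -0.125, 0.0352 and -0.115 between fasted and refed 60 min). With 3 samples per group this cannot exclude a pairing, and the main fit used none. With the replicate block 1611 genes were called against fasted, 1070 risen and 541 fallen, and 9 of the named calls were lost. Depth limits low genes: 1 read was worth 0.833 to 1.128.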
